A study of Zea mays with 32 samples.

Results

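Alcohol dehydrogenase 1 of maize, adh1, is described here along 2 primary roots as the identifier Zm00001d033931, 1 gene of the 39510 identifiers in the count table. The row was chosen by its identifier and not by a rule on its values, though earlier results of these data were known. The table holds identifiers without names and 0 of them matched the RefSeq gene table, so the name adh1 goes with the row by that choice and could not be checked in the files. The roots, A and B, came from wild-type seedlings of the inbred line B73, 7 days after germination, raised on paper in a growth chamber with no further treatment in the labels. They were pinned side by side and cut by hand from the tip backwards into 16 slices, so each slice is a group of 2 libraries, 1 from each root (n = 2), and the 16 slices of a letter share 1 plant. The labels give a slice its number and no zone, length or cell type, and the tissue was not checked against marker genes because the identifiers carry no names.

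ADH1 carries out the last step of ethanol fermentation: it reduces acetaldehyde, which pyruvate decarboxylase makes from pyruvate, to ethanol, and turns NADH back into NAD+. Glycolysis can then go on making ATP when mitochondria lack oxygen. In maize seedlings adh1 is a classic low-oxygen gene, whose transcript and enzyme rise when roots are flooded or kept without air, and the enzyme is also made in aerated roots. The partner genes of fermentation, sucrose cleavage, glycolysis and the low-oxygen response are not analysed here, since no name could be tied to an identifier of the table.

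The 32 libraries held 1008082 to 5681180 counts (median 1860465), of which adh1 took 38 to 3495. Its counting error (95% Wilson interval of its share of a library) was 3.31% to 32.2% of the value on either side. These intervals leave out amplification and the spread between plants. The library of slice 8 of root A stood apart, with 8262 genes expected at a depth of 1000000 counts against 13740 to 19840 elsewhere. The libraries of slice 1 and slice 12 of root A, with 13740 and 14639 genes, were the next lowest. Levels below are counts per 1000000 counts with TMM scaling (CPM), and each is 1 library.

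In root A adh1 was highest at the very tip, and in root B it was near its lowest there. In slice 1 root A held 3400 CPM and root B 62.4 CPM, from 3034 and 76 counts. As a share of the library this was 0.288% (Wilson interval 0.278% to 0.299%) in root A and 0.00667% (0.00533% to 0.00834%) in root B, and the levels differed 54.5-fold. The contrast was smaller in the next slice, with 916 CPM in root A and 126 CPM in root B. In root A slice 1 ranked first and slice 2 second of the 16, while in root B slice 2 ranked 12th and slice 1 15th.

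Slices 3 to 6 were a low stretch in both roots. In root B this was no drop from the tip, as slices 1 and 2 (62.4 and 126 CPM) lay within the same range. In slice 3 the level was 207 CPM in root A and 59.7 CPM in root B, in slice 4 it was 206 and 105 CPM, and in slice 5 it was 238 and 125 CPM, in that order of roots. Slice 6 held 376 and 126 CPM. Within slices 3 to 6 root A was thus above root B in every slice, with a mean of 257 ± 80.7 CPM against 104 ± 31 (SD over 4 slices of 1 root, which are not replicates). Slice 1 of root A was 16.5 times as high as slice 4 of the same root.

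The roots nearly met in slice 7 and changed order in slice 8. In slice 7 the libraries gave almost the same level, 333 CPM in root A and 309 in root B (coefficient of variation 5.24%, against 27% to 136% in the other slices), and over all genes too the libraries of slice 7 were the closest pair. In slice 8 root A held 45.6 CPM, its lowest level, from 38 of 1053929 counts, and root B held 146 CPM. Slice 8 was the only slice in which root B was the higher one. Most genes were low in that library of root A: the median difference between the roots over the 11996 genes that averaged 10 CPM or more was 2.42 log2 units in slice 8, against 1.66 for adh1.

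From slice 9 backwards adh1 stayed at a raised level in both roots, with root A above root B throughout. Root A held 882, 637, 620 and 762 CPM in slices 9 to 12 and 783, 713, 807 and 627 CPM in slices 13 to 16. Root B held 222, 318, 184 and 444 CPM in slices 9 to 12 and 443, 354, 406 and 426 CPM in slices 13 to 16. In root A the 8 slices from 9 to 16 (620 to 882 CPM) lay above all of slices 3 to 8 (45.6 to 376 CPM) and below slices 1 and 2. In root B they (184 to 444 CPM) lay above all of slices 1 to 6 (59.7 to 126 CPM), while slice 7 fell within their range. These sets of slices were picked after the levels were seen. The share of genes with the same separations was not counted, so they are descriptions of adh1 alone.

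**Figure D1:**
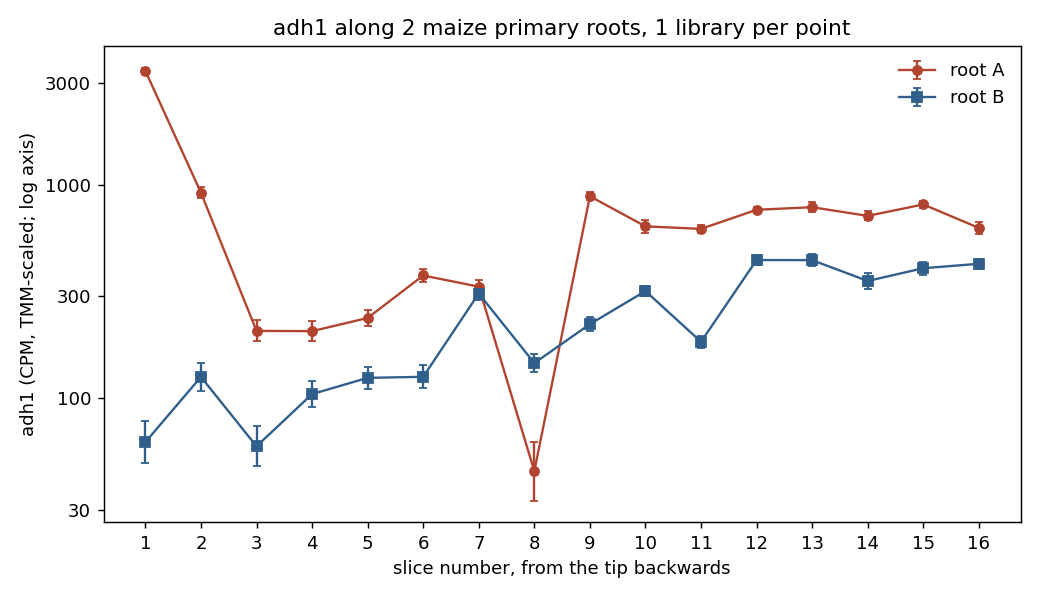
Level of adh1 (CPM with TMM scaling, log axis) against slice number from the tip backwards, with 1 library per point, root A as circles and root B as squares, and 95% Wilson counting intervals as bars. Root A starts at 3400 CPM in slice 1 and root B at 62.4 CPM; apart from slice 7, where they nearly meet, and slice 8, root A runs above root B.

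In both roots adh1 was higher in slices 13 to 16 than in slices 3 to 6. The mean level at the back was 2.86 times that of slices 3 to 6 in root A and 3.92 times in root B. In each root all 4 slices at the back lay above all 4 of the low stretch (627 to 807 against 206 to 376 CPM in root A, 354 to 443 against 59.7 to 126 CPM in root B). Such a separation was common along these roots: 19.6% of the 19587 genes tested showed it in the same direction in both roots. These 2 sets of slices were picked after the levels were seen, so the separation is a description and carries no test.

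A joint test of the 16 slices, edgeR's quasi-likelihood test across all genes, did not call adh1 (F = 1.49, adjusted p = 0.263). The same test called 60.9% of the genes tested, at an adjusted p under 0.05. Here and below the adjustment is Benjamini-Hochberg over the genes tested in that fit, 19587 with all libraries and the main filter. Adding the root letter as a replicate block gave an adjusted p of 0.0626, and leaving out the root B library of slice 1 gave 0.0128. DESeq2's likelihood ratio test gave 0.00351, and the edgeR test with no filter on low counts 3.59e-21.

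By mean log2 level the order of the slices, from the highest, was 13, 12, 15, 16, 14, 1, 10, 9, 2, 11, 7, 6, 5, 4, 3 and 8. Slice 1 came 6th, as the middle of a pair that lay 5.75 log2 units apart. The edgeR fit works from counts and not from mean log2 levels, and in it slice 1 was the highest slice. Fitted log2 differences of the other slices from slice 1 ran from −4.12 (slice 8) to −1.5 (slice 13). For slice 14, just above slice 1 in the order, the fitted difference was −1.69, so that test and the order have opposite directions. At each of the 15 places in this order the ranges of the neighbouring slices overlapped, and no neighbours in the order differed in edgeR (adjusted p from 0.325 to 1). Of the 120 pairs of slices, 1 was called: slice 8 was below slice 1 by a log2 difference of −4.12 ± 1.35 (SE, edgeR, adjusted p = 0.0416). Over all pairs 13.6% of gene tests were called, and 18.6% of the genes in that pair. This call rests on the 2 libraries of root A that gave its highest and lowest level, and root B went the other way, from 62.4 CPM in slice 1 to 146 in slice 8. The number of pairs called was 0 without slice 1 of root A, without slices 1, 8 and 12 of root A, or without either library of slice 4, 5, 7, 8, 10, 13, 14 or 16. It was 2 without either library of slice 2, 7 without slice 1 of root B, 7 with the replicate block, 10 with DESeq2 and 52 with no filter on low counts.

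Between slice 1 and slices 2 to 4, which sets the very tip against the tissue just behind it, adh1 was called higher at the tip, and the direction was that of root A alone. The fitted log2 change was 2.97 ± 0.88 (SE, edgeR, adjusted p = 0.0186), and 27.6% of the genes tested were called. In root A slice 1 (3400 CPM) lay above all of slices 2 to 4 (206 to 916 CPM), 7.67 times their mean. In root B slice 1 (62.4 CPM) lay within the range of slices 2 to 4 (59.7 to 126 CPM), at 0.645 of their mean. Without slice 1 of root A the change was −1.82 (adjusted p = 0.321), and without slice 3 of root B it was 2.77 with an adjusted p of 0.0507. A model with slice 1 apart in each root, added after the data were seen, gave a change in root B that differed from that in root A by −3.58 ± 1.08 (log2, root B minus root A, SE, edgeR, unadjusted p = 0.00213, adjusted p = 0.24), with 0.00511% of the genes called. It holds 1 library of slice 1 per root and assumes that this library varies like the others. DESeq2 gave −3.77 with an adjusted p of 0.047.

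From slices 1 to 4 to slices 13 to 16, the ends of the sampled length, the log2 difference of adh1 was 0.62 ± 0.6 (SE, edgeR, adjusted p = 0.43), while 48.3% of the genes tested were called. The change was −0.15 with blocks of 4 slices as groups over the same libraries (adjusted p = 0.846), and 0.61 and called with no filter on low counts (adjusted p = 0.0338). The levels overlapped over both roots: slices 1 to 4 held 59.7, 166 and 3400 CPM (lowest, median and highest of 8 libraries) and slices 13 to 16 held 354, 535 and 807 CPM. The roots taken alone, with blocks of 4 slices as groups, went opposite ways. Root B rose by 2.18 ± 0.39 (SE, edgeR, adjusted p = 0.00019), with slices 1 to 4 at 59.7 to 126 CPM and slices 13 to 16 at 354 to 443 CPM. Such a call was common, as 8268 of 20425 genes were called in that fit. Root A gave −0.83 ± 0.64 (adjusted p = 0.326), with slices 1 to 4 at 206 to 3400 CPM and slices 13 to 16 at 627 to 807 CPM. Each of these fits treats the 4 slices of a block in 1 root as its replicates. The change in root B exceeded that in root A by 2.89 ± 0.81 (log2, root B minus root A, SE, edgeR, unadjusted p = 0.000928), which did not pass after adjustment over all genes (adjusted p = 0.317), and 0.0306% of the genes were called.

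The result for the ends of the root turned on slice 1. Without slice 1 of root A, which leaves 1 library in that slice, the change over both roots was 1.83. Without slice 1 of both roots it was 1.37 (edgeR, adjusted p = 0.0191), and 11273 of 19689 genes were called. The gap between the changes of the 2 roots became 1.47 without slice 1 of root A (adjusted p = 0.649) and 1.34 without slice 1 of both (adjusted p = 0.988). The library with that high level also held few genes (13740 at a depth of 1000000 counts), and the part of this in the result was not tested.

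In the main fit, which had no root term, no step between successive blocks of 4 slices called adh1. A steady difference between the roots counts as spread within slices in that fit. From slices 1 to 4 to slices 5 to 8 the log2 change was −0.92 ± 0.61 (SE, edgeR, adjusted p = 0.426, with 9.74% of genes called). It was 0.3 without slice 1 of root A, −2.22 ± 0.66 in root A alone and 1.04 ± 0.38 in root B alone (adjusted p = 0.0683 and 0.124). The sign of this step was not the same in the 2 roots.

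From slices 5 to 8 to slices 9 to 12 the log2 change was 1.36 ± 0.61 (SE, edgeR, unadjusted p = 0.038, adjusted p = 0.0796), and 43.1% of the genes were called. The direction was the same in both roots, 1.44 ± 0.64 in root A and 0.67 ± 0.37 in root B (adjusted p = 0.111 and 0.195). In root A slices 5 to 8 held 45.6 to 376 CPM and slices 9 to 12 held 620 to 882 CPM, with no overlap, and in root B the ranges of 125 to 309 and 184 to 444 CPM overlapped. How many genes had no overlap between these blocks in root A was not counted, so the separation is not a trait particular to adh1. Among 32 refits without 1 library and 13 other alternatives, only 5 called this change. With the replicate block, 1 of these 5, the change was 1.15 ± 0.42 (SE, edgeR, adjusted p = 0.0311), and 9007 of 19587 genes were called. It was also called without slice 1 of root A or of root B (adjusted p = 0.0151 and 0.0165) with DESeq2 (adjusted p = 0.0418) and with no filter on low counts (adjusted p = 2.41e-07), but not without slice 8 of both roots (0.94, adjusted p = 0.264).

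From slices 9 to 12 to slices 13 to 16 adh1 gave 0.18 ± 0.59 (log2, SE, edgeR, adjusted p = 0.929), with 19.6% of the genes called. Root A gave −0.04 and root B 0.48. Leaving out slice 9 of root B turned the change to −0.02. Both roots had ranges that overlapped between these blocks (620 to 882 against 627 to 807 CPM in root A, 184 to 444 against 354 to 443 CPM in root B).

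**Figure D2:**
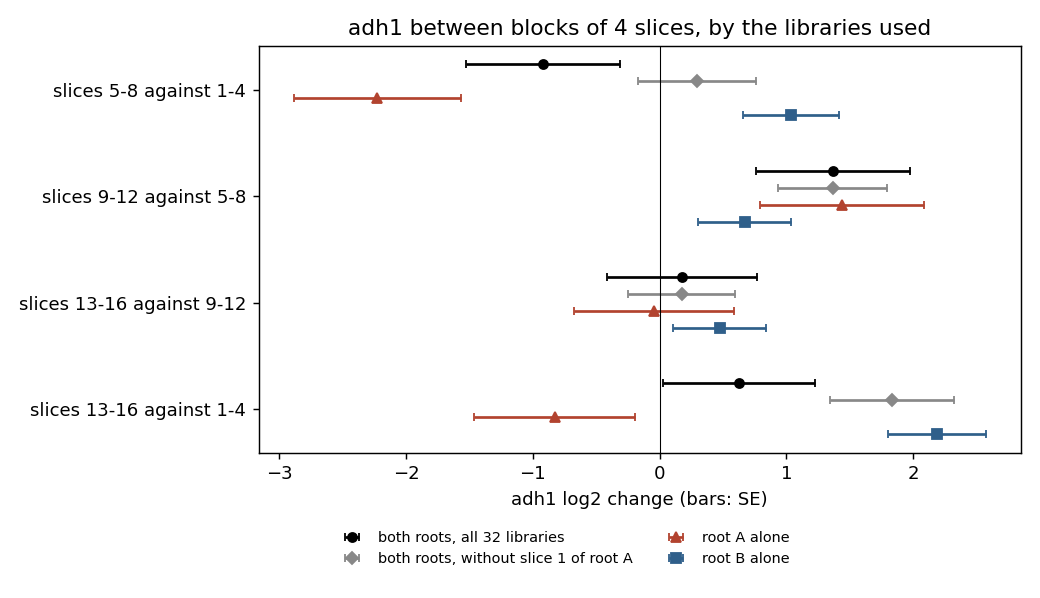
Log2 change of adh1 (x axis, bars are SE) between blocks of 4 slices (y axis), for all 32 libraries (black circles), without slice 1 of root A (grey diamonds), root A alone (triangles) and root B alone (squares). From slices 1 to 4 to slices 5 to 8 and to slices 13 to 16 the single roots lie on opposite sides of 0; from slices 5 to 8 to slices 9 to 12 all 4 values are above 0.

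adh1 was higher in root A than in root B over the length of the root. At matched slices its level in root B differed from that in root A by a log2 difference of −1.26 ± 0.32 (SE, edgeR, adjusted p = 0.0132), a level 2.39 times as high in root A. Root A was higher in 15 of 16 slices. Of the genes tested, 10.0% were called between the roots. Each side is 1 plant, so this p compares these roots and no wider population. The test takes the slices of a root as independent replicates, though they share a plant, and so do the refits that follow. The difference stayed called without each library in turn (−1.41 to −1.06, adjusted p from 0.000421 to 0.0283), without slice 1 of both roots (−1.06, adjusted p = 0.000355) and without slices 1, 7 and 8 of both roots (−1.29, adjusted p = 2.8e-07).

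The gap between the roots was widest at the tip and narrower at the back. It was 54.5-fold in slice 1, 7.27-fold in slice 2 and 3.47-fold in slice 3. It ran from 1.08-fold to 3.97-fold in slices 4 to 7 and 9 to 12, and from 1.47-fold to 2.02-fold in slices 13 to 16. Slices 4, 5, 7, 10 and 12, at 1.08-fold to 2.01-fold, were about as narrow as the back. In slice 8 root B was the higher one, by 3.2-fold. Means of slices 13 to 16 were 733 ± 80.9 CPM in root A and 407 ± 38.6 CPM in root B (SD over 4 slices of 1 root).

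Among the 11996 genes that averaged 10 CPM or more, few were as far apart between the roots in this direction. In slice 1, 30 genes (0.25%), adh1 included, had a log2 difference at least as low as the −5.75 of adh1. Counted in either direction, 89 genes (0.742%) were at least as far from 0. Slice 1 was variable in general, with a median absolute difference of 1.12 log2 units over these genes, against 0.153 in slice 7 and 2.9 in slice 8. Over all slices 179 genes (1.49%) had a fitted difference at least as low as that of adh1, and 122 (1.02%) were higher in root A in 15 or more slices, where the median gene was so in 8. Slice by slice, the share of genes at least as low in root B as adh1 was 0.25% to 14.1% in 11 slices, 16.7% to 20.9% in slices 12, 15 and 16, 32% in slice 7 and 42.8% in slice 8. These shares describe 2 roots and are no test. In bulk slices, a larger share of cells that express a gene and more transcript per cell cannot be told apart.

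**Figure D3:**
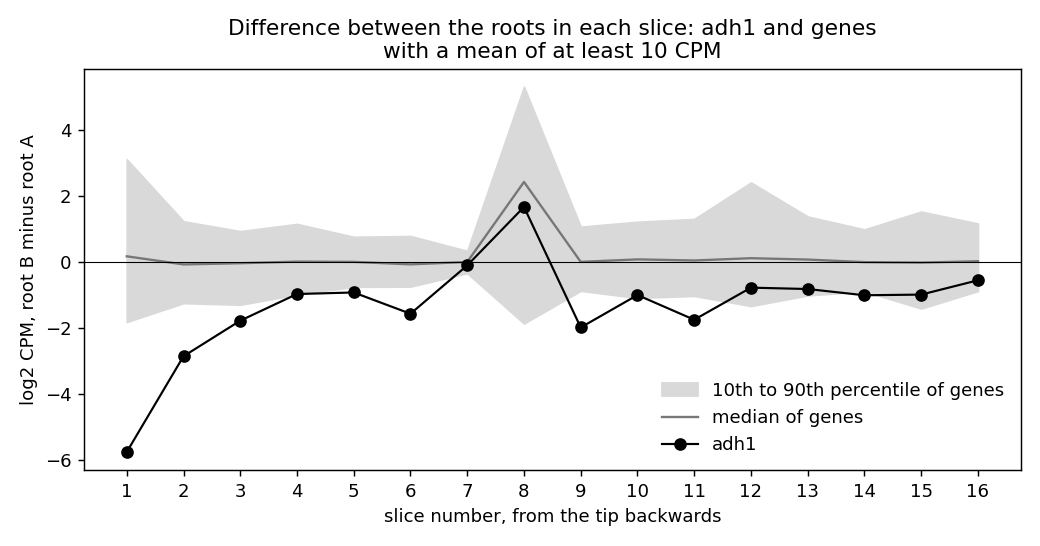
Difference in log2 CPM between the roots (root B minus root A, y axis) in each slice (x axis) for adh1 (black points), beside the median (grey line) and the 10th to 90th percentile (grey band) of the 11996 genes that averaged 10 CPM or more. adh1 lies at −5.75 in slice 1, below 0 in 15 slices, and above 0 in slice 8, where the median gene is at 2.42.

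The roots did not give adh1 the same profile when slice 1 is counted. The correlation of its log2 level between root A and root B over the 16 slices was 0.18 (Pearson; Spearman 0.315), below the median of those genes (0.531). Without slice 1 it was 0.565 (Spearman 0.55), near the median gene (0.522), and without slices 1 and 8 it was 0.686 (median gene 0.685). The slices of a root share a plant, so the correlations are descriptions.

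How many genes followed adh1 closely in both roots depended on slice 1, slice 8 and the kind of correlation. Likeness was taken as the smaller of the 2 correlations with adh1 over the 16 slices, one in each root, among the 11995 other genes of that level. Over all 16 slices no gene reached 0.9, and 20 genes (0.167%) reached 0.8. Without slice 1 of both roots, 308 genes reached 0.8 and the highest likeness was 0.943. The number at 0.8 was 7 without slice 8 of both roots and 1 with Spearman correlation. The most alike was Zm00001d038595 (Pearson 0.891 in root A and 0.904 in root B), whose slice 1 level was 254 CPM in root A and 11.5 CPM in root B. It was low in slices 3 to 6 (means 23.8 and 22.4 CPM in roots A and B) and higher on average in slices 13 to 16 (99.7 and 78.5 CPM), and it had no count in slice 8 of root A. From slice 13 to slice 16 it fell, from 157 to 38.9 CPM in root A and from 106 to 45.4 CPM in root B. In those slices adh1 stayed at 627 to 807 CPM in root A and 354 to 443 CPM in root B. The second was Zm00001d052493 (0.889 and 0.936), a weakly expressed gene at 26.9 and 0.821 CPM in slice 1 of roots A and B and at 12.2 and 31.2 CPM in slices 13 to 16. All 20 genes were higher in root A than in root B in slice 1, which the choice by correlation with adh1 in both roots favours. The median gene averaging 10 CPM or more was at 0.168 log2 units (root B minus root A) in that slice. Over all slices 1 of the 20 was called higher in root A and 2 higher in root B, against 458 (3.82%) and 665 (5.54%) of the genes compared.

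The most opposite profiles were those of Zm00001d048074 (−0.804 in root A and −0.86 in root B) and Zm00001d031457 (−0.83 and −0.802). In slice 1 Zm00001d048074 was low in root A (3.36 CPM), where adh1 was high, and higher in root B (55.9 CPM), where adh1 was low. Both genes were high in slice 8 of root A (112 and 93.7 CPM), where adh1 was lowest. The files give these 4 identifiers no name. Which genes are most alike depended on slices 1 and 8: of the 20, 3 were among the 20 most alike without slice 1 and 7 without slice 8, and 5 with Spearman correlation.

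**Figure D4:**
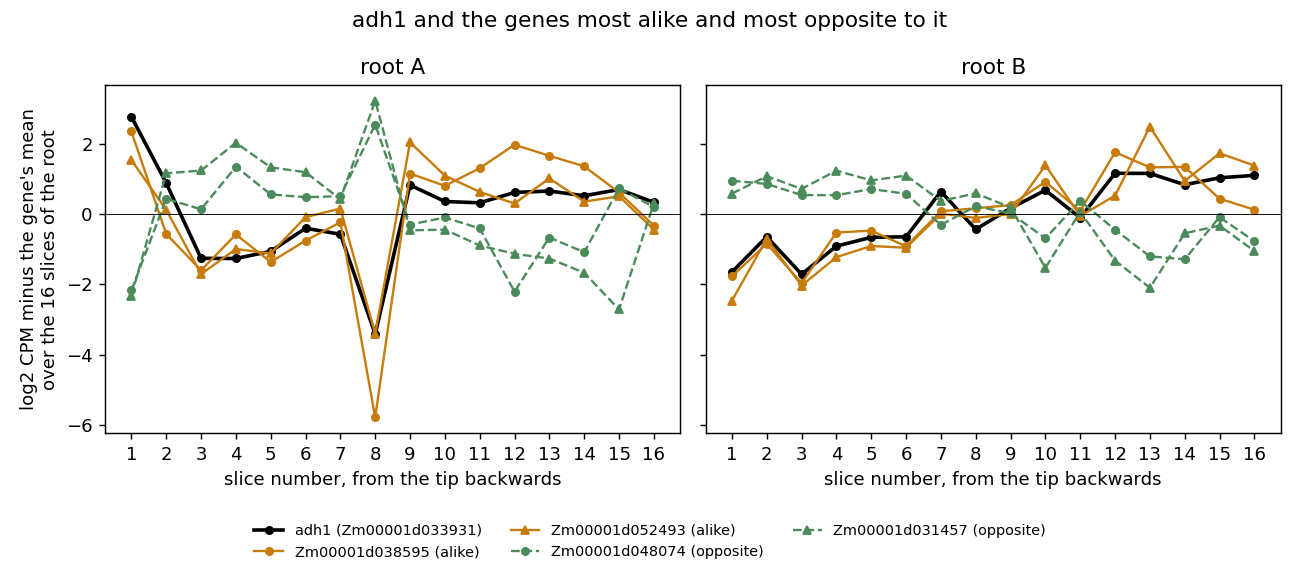
Profiles of adh1 (black), the 2 genes most alike (orange) and the 2 most opposite (green, dashed) as log2 CPM minus the gene's mean over the 16 slices of the root (y axis) against slice number (x axis), root A on the left and root B on the right. In root A the agreement includes the high slice 1 and the low slice 8. In root B it follows a rise from the tip that the most alike gene, Zm00001d038595, did not keep to the back. That gene fell from 142.7 CPM in slice 12 of root B to 45.37 CPM in slice 16, where adh1 held 443.5 and 425.9 CPM.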

How the data were processed

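RNA-seq counts of 32 libraries (16 slices of 2 maize roots) were used. The deposited table holds whole-number counts per gene identifier; per the submitters' processing notes the authors used Trimmomatic, kallisto 0.43 and DESeq2, with no roles stated. The sources used here do not give build, annotation, strand or rounding. Per the labels' protocols, libraries were amplified with the Ovation RNA-Seq System V2, and no molecular identifiers are mentioned. Where kallisto made the counts, reads shared with a near-identical gene are divided by estimation, so adh1 may share reads with such a copy.

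The member, lists and comparisons were chosen with earlier results of these data known. Slices and roots were taken from the titles. Tests used edgeR 4.0.16 in R 4.3.3: filterByExpr (minimum count 10, minimum total 15; 19587 genes kept), TMM scaling and the robust quasi-likelihood fit with the newer dispersion step, over all libraries with 16 slices as groups and no block. The slice fit gave the joint test, the contrasts between means of slices and the 120 pairs. Root B was set against root A with slice as a covariate, and the changes within each root were set against each other in a fit of 8 groups (4 blocks of slices in each root). Calls are at an adjusted p (Benjamini-Hochberg) under 0.05. SEs of log2 changes were computed from the change and F (change divided by the root of F). Log2 CPM used a prior count of 2. Letters pair the samples, since per the labels a letter is 1 root; across genes, the deviations from the slice means correlated between slices of 1 root with a median of 0.143 (−0.02 to 0.376). In the slice fit without a block, p-values cover only the spread between these 2 plants. In fits with a root term, or with groups within 1 root, they rest on scatter between slices and hold no spread between plants. Genes named as alike or opposite were the 2 at each end of the likeness among genes that averaged 10 CPM or more. Scripts were tested on simulated data. Alternatives were DESeq2 1.42.0, other scalings and filters, the older dispersion step, the root letter as a block, and leaving out libraries.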

Additional observations from a re-analysis of the deposited data

How the results depend on the processing

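The joint test of the slices had an adjusted p of 0.263, and 0.00351 with DESeq2, 3.59e-21 with no filter on low counts, 0.0626 with the replicate block and 0.0128 to 0.449 with 1 library left out. With no filter the unadjusted p-values of adh1 were lower than with the filter in each comparison, and its adjusted p was lower in all but slices 13 to 16 against 9 to 12 (1 against 0.929); the cause was not tested. For slice 1 against slices 2 to 4 the log2 change ran from −1.82 to 3.95 with 1 library left out and was −1.84 without slices 1, 8 and 12 of root A; the replicate block gave 2.61. For slices 13 to 16 against 1 to 4 it ran from 0.39 to 1.83, and was −0.15 with blocks of 4 slices as groups, −0.83 in root A alone, 2.18 in root B alone, 0.61 with no filter (called), 1.37 without slice 1 of both roots and 1.78 without slices 1, 8 and 12 of root A. For slices 5 to 8 against 1 to 4 it ran from −1.19 to 0.295, and was −0.89 with no filter (called), 1.04 in root B alone and 0.43 without those 3 libraries. For slices 9 to 12 against 5 to 8 it ran from 1.04 to 1.65, and was called with DESeq2 (1.21), no filter (1.36) and the replicate block (1.15). For slices 13 to 16 against 9 to 12 it ran from −0.023 to 0.503 and was −0.041 in root A alone. The gap between the changes of the 2 roots was called for slices 13 to 16 against 1 to 4 with no filter (2.83, adjusted p = 0.0143) and for slice 1 against slices 2 to 4 with DESeq2 (−3.77). Of the 120 pairs of slices the number called was 0 to 7 with 1 library left out, 2 with DESeq2's size factors or upper quartile scaling, 3 among genes averaging 10 CPM or more, 7 with the replicate block, 10 with DESeq2, 52 with no filter, 0 with slice 7 counted as 1 and 0 without slices 1, 8 and 12 of root A. Root B against root A stayed called in the same direction in all 42 alternatives run. The replicate block changed no other call. With 1 library of each root per slice, a difference within 1 slice rests on 2 libraries. Counting error was 3.31% of the value on either side in slice 12 of root A and 32.2% in slice 8 of root A. The part of depth in the differences was not tested. Alternatives that leave out slice 1 or slice 8 of both roots, or slices 1, 7 and 8, and all values of the model with slice 1 apart, were chosen after seeing the data.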
